A study of Ambystoma mexicanum with 44 samples.

Results

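PMP22, GLDN, NGFR, UCHL1 and TUBB3 are 5 genes used as markers of Schwann cells, axons and neurons. They were followed here in the wound epidermis of the axolotl, Ambystoma mexicanum. The members are all probe sets whose platform annotation gives one of these 5 symbols, which are 6 of 20080 probe sets on the array. UCHL1 has 2 probe sets, axo09830-r_at and axo09831-r_at, and the other genes have 1 each (PMP22 axo04891-f_at, GLDN axo02656-r_at, NGFR axo08282-f_at and TUBB3 axo11696-f_at). No filter on low values was applied, so all 6 were tested.

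Peripheral axons are wrapped by Schwann cells. PMP22 is a membrane protein of their compact myelin, and GLDN (gliomedin) is secreted by them and gathers sodium channels at nodes of Ranvier by binding neurofascin and NRCAM on the axon. NGFR is the low-affinity neurotrophin receptor, which is found on Schwann cells and, in mammals, also on basal keratinocytes. UCHL1 is a deubiquitinating enzyme abundant in neurons that is often stained to show skin nerves, and TUBB3 is the beta-tubulin used as a marker of neurons. A regenerating salamander limb depends on its nerves, and a limb denervated before amputation heals its wound without forming a normal blastema.

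The arrays were Affymetrix arrays of labelled total RNA from aquatic axolotls, with 44 arrays in 11 groups of 4 biological replicates. The groups were denervated amputated limbs at days 1, 3 and 7, innervated limbs at day 0 (uninjured) and at days 1, 3 and 7 after amputation, and flank skin at day 0 and at days 1, 3 and 7 after a full thickness punch wound. Forelimbs were cut just above the elbow and the humerus was trimmed back, and denervation was done by cutting the brachial nerves that enter the limb. Each array held epidermis with the cells adhering to it, with 2 harvested samples pooled for each animal, and neither genotype, age nor sex is stated. The design text calls day 0 uninjured, whereas the sample descriptions of day 0 use the same words for injured flank and amputated limb as on later days; the design text was followed here. There is no denervated day 0 group, so both limb series were set against the same 4 uninjured innervated limb arrays and their changes from day 0 are not independent. In such bulk RNA, fewer cells of a type and less RNA per cell cannot be told apart.

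Values are the authors' log2 signals, which ran from 2.41 to 15.04 with array medians of 5.61 to 5.73. With 4 arrays in a group, precision is set by their number: the standard error of a group difference had a median of 0.123 over all probe sets. Each standard error and interval rests on 1 spread per probe set, estimated over all 11 groups. They are therefore too narrow where the groups compared vary more than the rest, and too wide where they vary less. The lowest correlation between any pair of arrays was 0.939. The mean of 15 epidermal genes lay between 9.89 and 10.59 on every array, so the labelled tissue carried its own markers throughout. The mean of 18 skeletal muscle genes was far less even: it was 7.16, 9.01, 9.14 and 9.38 in denervated limbs at day 1 (replicates 1 to 4), against 7.30, 6.71, 10.28 and 10.53 in innervated limbs at day 1, and it was 10.34 in denervated day 3 replicate 3 alone of its group, whose other arrays lay between 4.80 and 6.58. Innervated day 1 replicates 3 and 4 and denervated day 3 replicate 3 ranked highest of all arrays in muscle signal (the 3 muscle-rich arrays), and the PMP22 and GLDN results that involve innervated day 1 are given with and without them. Of Schwann cell markers, SOX10, S100B, EGR2 and MAG were not analysed here, since no probe set carries those symbols in the annotation used.

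Denervated and innervated limbs were compared on each day with limma over 20035 probe sets, with Benjamini-Hochberg adjustment and a call at an adjusted p under 0.05. None of the 6 member probe sets passed on any day. At day 1 this stood against a background of 0.0200% of all probe sets called, at day 3 of 0.265% and at day 7 of 1.70%. An unadjusted p under 0.05 was reached by 2 members at day 1, 0 at day 3 and 1 at day 7, and by 7.91%, 6.63% and 11.4% of all probe sets. The median difference of the 6, denervated minus innervated, was -0.23 at day 1, 0.15 at day 3 and 0.04 at day 7, while the medians over all probe sets lay within 0.005 of 0.

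**Figure D1:**
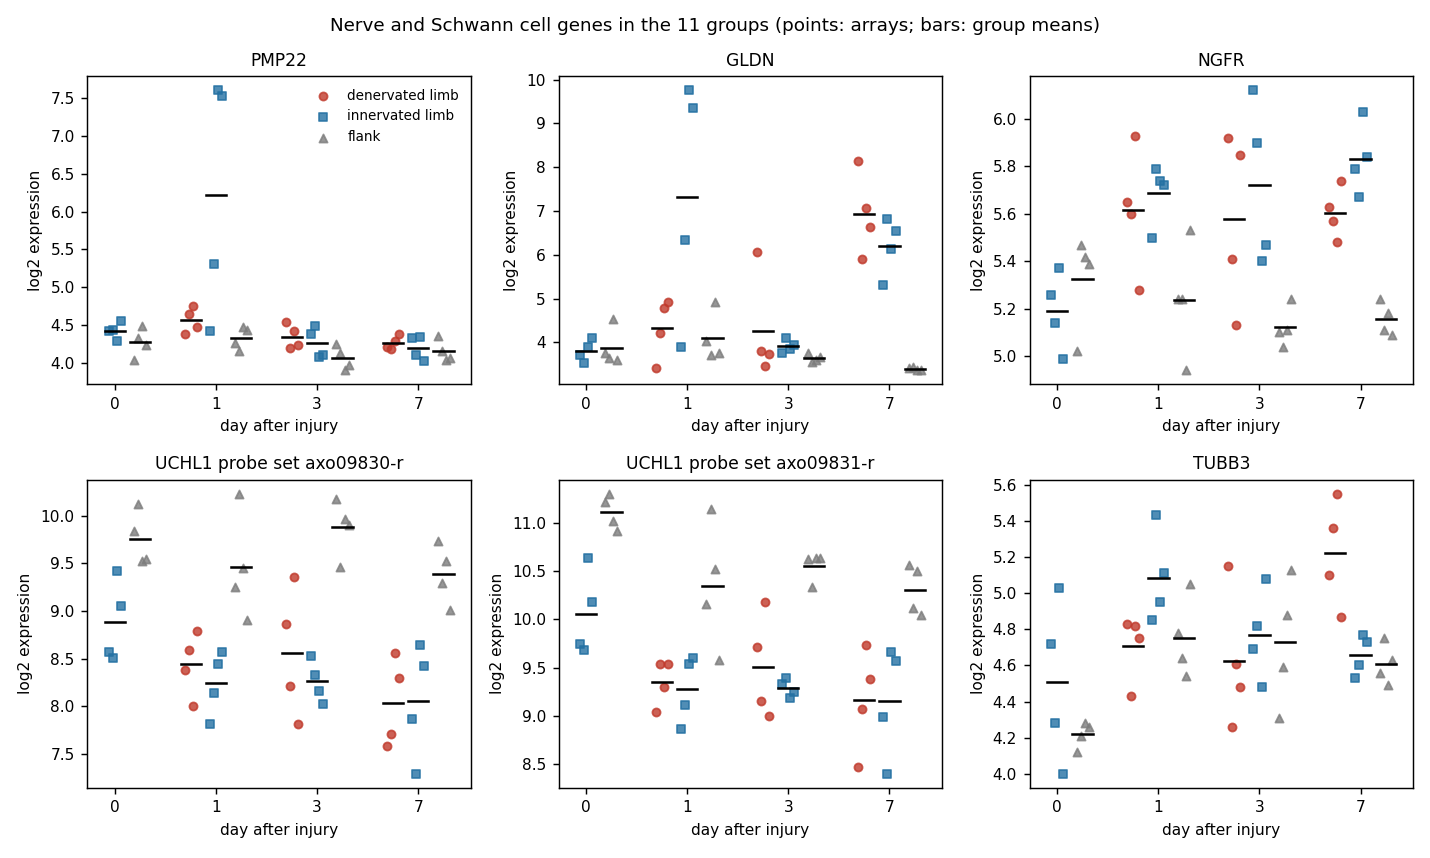
Log2 level of the 6 member probe sets by day after injury, with 1 panel for each probe set; points are single arrays and bars are means of 4 arrays, for denervated limb, innervated limb and flank. PMP22 and GLDN were high on 3 of 4 innervated limb arrays at day 1, GLDN was high again in both limb groups at day 7, and both UCHL1 probe sets were highest in flank.

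PMP22, the myelin protein, was high in 1 group, innervated limbs at day 1, and there on 3 of 4 arrays. Its log2 level was 4.38, 4.64, 4.75 and 4.48 in denervated limbs at day 1, against 4.42, 5.31, 7.60 and 7.53 in innervated limbs at day 1. Innervated replicates 2, 3 and 4 lay above every denervated array and replicate 1 lay among them, so the groups overlapped. The difference, denervated minus innervated, was -1.65 ± 0.34 (SE, n = 4 each; 95% interval -2.35 to -0.96), with an adjusted p of 0.0597 in limma. That SE uses the spread over all 11 groups, while the SD at day 1 was 0.16 in denervated and 1.60 in innervated limbs. At day 3 the difference was 0.08 (95% interval -0.61 to 0.78) and at day 7 it was 0.06. The SD at day 3 was 0.16 in denervated and 0.20 in innervated limbs, so that interval is wide for these arrays.

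The day 1 difference of PMP22 depended on single arrays in both directions. Without innervated replicate 1 it was -2.25 with an adjusted p of 9.7e-06, and without innervated replicate 2 it was -1.95 with an adjusted p of 0.0117. Without innervated replicate 3 it was -1.19 with an adjusted p of 0.331, and without replicate 4 it was -1.21 with 0.196. Without the 3 muscle-rich arrays it was -0.30 with an adjusted p of 0.598.

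GLDN, the node protein, was high at day 1 on the same 3 innervated arrays. It measured 3.41, 4.21, 4.79 and 4.93 in denervated limbs, against 3.90, 6.33, 9.75 and 9.34 in innervated limbs. Again innervated replicates 2, 3 and 4 exceeded all denervated arrays and replicate 1 did not. The difference was -3.00 ± 0.69 (SE, n = 4 each; 95% interval -4.39 to -1.60) with an adjusted p of 0.111. Here too the SE uses the spread over all 11 groups, while the SD was 0.69 in denervated and 2.75 in innervated limbs. With innervated replicate 1 left out the difference was -4.14 and passed, at an adjusted p of 7.1e-05, whereas without replicate 3 it was -2.19 with 0.415. Without the 3 muscle-rich arrays it was -0.78 with an adjusted p of 0.727.

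At day 3 GLDN measured 6.07, 3.80, 3.46 and 3.74 in denervated limbs, against 3.76, 4.11, 3.86 and 3.95 in innervated limbs. Denervated replicate 1 stood above the other 7 arrays of that day, and the remaining values were intermixed. At day 7 the levels were 8.13, 5.91, 7.07 and 6.63 in denervated limbs, against 5.30, 6.82, 6.14 and 6.54 in innervated limbs. All 8 were above every limb array of day 0, and the 2 limb groups overlapped, with a difference of 0.73 ± 0.69 (SE; 95% interval -0.66 to 2.13; adjusted p = 0.800).

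**Figure D2:**
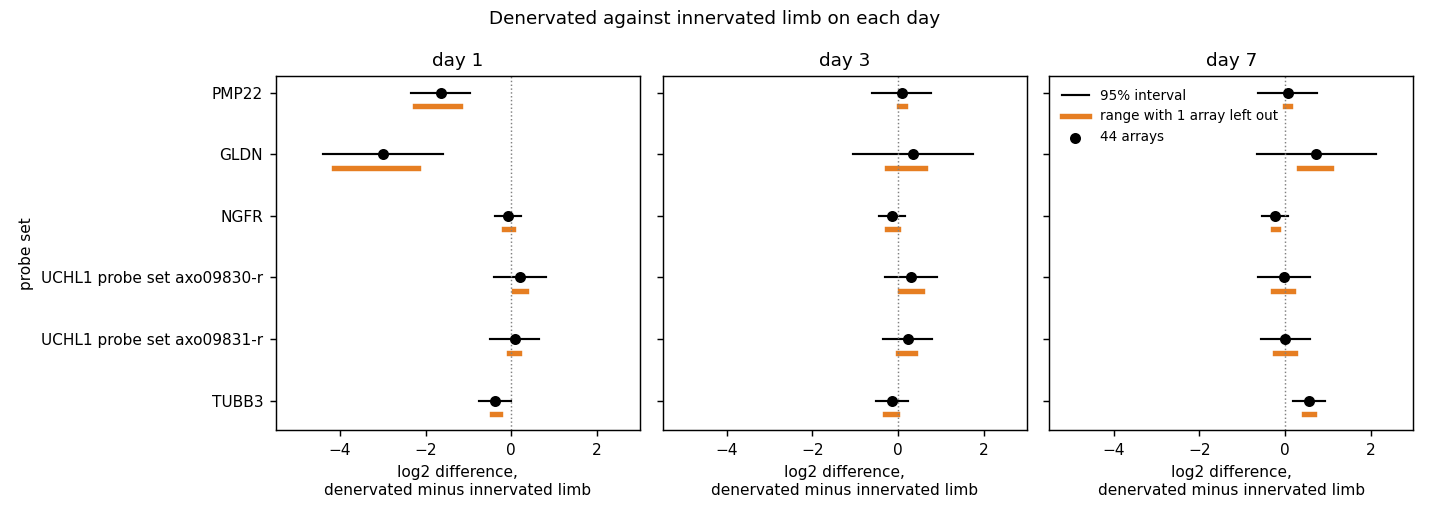
Denervated minus innervated log2 difference of each member probe set at days 1, 3 and 7, with its 95% interval and, beside it, the range of the difference when 1 array of either group was left out. PMP22 ranged from -2.25 to -1.19 and GLDN from -4.14 to -2.19 at day 1, and TUBB3 from 0.45 to 0.68 at day 7.

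For TUBB3, the neuronal beta-tubulin, denervated and innervated arrays did not overlap at days 1 and 7, though at day 1 only narrowly (4.83 against 4.85). How many of all probe sets likewise did not overlap was not counted, so no weight is placed on it. At day 7 TUBB3 measured 5.10, 5.36, 5.55 and 4.87 in denervated limbs, against 4.53, 4.60, 4.77 and 4.73 in innervated limbs. Every denervated array was the higher, by 0.56 ± 0.19 in the means (SE, n = 4 each; 95% interval 0.18 to 0.94), with an adjusted p of 0.128. No single omission brought it past the threshold, the adjusted p lying between 0.0831 and 0.375. At day 1 the order was opposite: 4.83, 4.43, 4.82 and 4.75 in denervated limbs, against 4.85, 5.43, 4.95 and 5.11 in innervated limbs, a difference of -0.38 ± 0.19 with an adjusted p of 0.634. At day 3 the difference was -0.14.

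NGFR differed by -0.07 at day 1, -0.14 at day 3 and -0.23 ± 0.15 at day 7 (denervated minus innervated; adjusted p = 0.644 at day 7). The UCHL1 differences were 0.20, 0.30 and -0.02 for axo09830-r_at, each with an SE of 0.30, and 0.08, 0.22 and 0.01 for axo09831-r_at, each with an SE of 0.28. For both genes the denervated and innervated arrays overlapped on each day.

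Whether the nerve difference depended on the day was tested as a difference of differences, and no member passed. Over all probe sets 0.235% passed for day 3 against day 1, 0.604% for day 7 against day 1 and 0.0549% for day 7 against day 3. For PMP22 the difference was higher by 1.73 ± 0.49 at day 3 than at day 1 (adjusted p = 0.154) and by 1.71 at day 7 than at day 1 (0.0946). The same quantities for GLDN were 3.34 ± 0.98 (0.179) and 3.73 (0.0631). TUBB3 gave 0.94 ± 0.26 for day 7 against day 1 (0.0925) and 0.70 for day 7 against day 3 (0.511). Without innervated day 1 replicate 1 both PMP22 values and both GLDN values passed, at adjusted p between 0.00073 and 0.00273. With the 3 muscle-rich arrays left out, the PMP22 values were 0.36 (0.61) and 0.37 (0.516) and those of GLDN did not pass (0.538 and 0.394).

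Against day 0, 2 of 6 member probe sets passed in denervated limbs at day 1 (34.2% of all probe sets did), 0 at day 3 (26.4%) and 5 at day 7 (27.0%). In innervated limbs 5 passed at day 1 (36.0%), 2 at day 3 (25.9%) and 4 at day 7 (26.6%). In flank 2 passed at day 1 (41.3%), 1 at day 3 (27.4%) and 1 at day 7 (23.7%). The 6 probe sets stand for 5 genes that went in different directions, so they are described one by one.

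GLDN rose by day 7 in denervated and in innervated limbs, and it did not pass in the flank wound on any day. In denervated limbs its mean was 6.93 ± 0.93 at day 7 (SD, n = 4), against 3.81 ± 0.24 at day 0, a log2 difference of 3.13 ± 0.69 (SE; 8.74-fold; adjusted p = 0.000487). In innervated limbs the mean at day 7 was 6.20 ± 0.66, a difference of 2.39 from day 0 (5.25-fold; adjusted p = 0.0074). Each call held when any 1 array was left out. The groups did not overlap, for which no share of all probe sets was counted. In flank, GLDN measured 3.42, 3.43, 3.37 and 3.36 at day 7, against 3.75, 3.64, 4.54 and 3.60 at day 0.

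Before day 7 GLDN was high in innervated limbs at day 1 and low again at day 3. In denervated limbs the means at days 1 and 3 were 4.33 ± 0.69 and 4.27 ± 1.21 (SD, n = 4 each), neither of which passed against day 0. Day 7 exceeded day 3 there by 2.67 (adjusted p = 0.0124, where 6.49% of all probe sets passed), a call that was lost without denervated day 3 replicate 3 (2.40, adjusted p = 0.0507) or without denervated day 7 replicate 1 (2.27, 0.0674). In innervated limbs GLDN was 7.33 ± 2.75 at day 1, which was 3.52 above day 0 (11.5-fold; adjusted p = 7.6e-05), and 3.92 ± 0.15 at day 3, which was lower than day 1 by a difference of -3.41 (adjusted p = 0.00022; 26.3% of all probe sets passed). With only both groups in the fit the fall from day 1 to day 3 did not pass (adjusted p = 0.0644). Day 7 then exceeded day 3 by 2.28, at an adjusted p of 0.0581 (3.51% of all probe sets passed).

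Against flank of the same day, GLDN was higher by 3.54 in denervated limbs at day 7 (adjusted p = 0.00067), by 3.22 in innervated limbs at day 1 (0.0033) and by 2.80 in innervated limbs at day 7 (0.0061). These calls held under each omission of 1 array. The innervated day 1 call was lost without the 3 muscle-rich arrays (adjusted p = 0.434) and with only both groups in the fit (0.304). As changes from day 0, the limb exceeded the flank by 3.62 in denervated limbs at day 7 (adjusted p = 0.0269), by 3.29 in innervated limbs at day 1 (0.0395) and by 2.88 in innervated limbs at day 7 (0.0984). The share of all probe sets called in these 3 comparisons was 3.80%, 5.25% and 3.64%. The denervated day 7 change was lost without flank day 0 replicate 3, innervated day 0 replicate 2 or denervated day 7 replicate 1, at differences of 3.22 to 3.52 and adjusted p up to 0.0862, and the innervated day 1 change without any 1 of 10 of its 16 arrays, at differences of 2.49 to 3.39 and adjusted p up to 0.112 (without innervated day 1 replicate 4). The innervated day 1 change was 1.08 (0.472) without the 3 muscle-rich arrays.

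PMP22 passed against day 0 only in innervated limbs at day 1, where its mean was 6.21 ± 1.60 (SD, n = 4), against 4.43 at day 0. The difference was 1.79 ± 0.34 (SE; 3.45-fold; adjusted p = 5.8e-05) and it kept its call under each omission of 1 array. With only both groups in the fit this rise did not pass (adjusted p = 0.0738). By day 3 the mean was 4.26, lower than at day 1 by a difference of -1.95 (adjusted p = 3.3e-05). That fall was -0.60 (0.0076) without the 3 muscle-rich arrays and -0.16 (0.626) without these and innervated day 1 replicate 2, and with only both groups in the fit it did not pass (0.0707). In denervated limbs PMP22 averaged 4.56, 4.34 and 4.26 at days 1, 3 and 7. In flank all 16 arrays lay between 3.90 and 4.49. The innervated limb exceeded the flank at day 1 by 1.88 (adjusted p = 0.00066). This call was lost without the 3 muscle-rich arrays (0.0869) and with only both groups in the fit (0.297). As a change from day 0 the innervated limb exceeded the flank by 1.73 (0.0304). That change was 0.38 (0.375) without the 3 muscle-rich arrays. It was also lost without flank day 0 replicate 3 or 4, innervated day 0 replicate 2, innervated day 1 replicate 3 or 4 or flank day 1 replicate 2, at differences of 1.27 to 1.74 and adjusted p up to 0.0908.

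The day 1 rise of PMP22 and GLDN in innervated limbs fell on arrays where some other genes of the myelin and Schwann cell list were high as well. The mean of all 13 genes of that list, PMP22 included, was 5.32, 5.53, 5.79 and 5.63 in denervated limbs at day 1 (replicates 1 to 4). In innervated limbs at day 1 it was 5.26, 5.94, 6.71 and 6.76. Not all genes of the list rose, and counts are given further below. The genes that follow are members of it. MBP, the myelin basic protein, measured 4.76, 5.88, 7.92 and 7.47 in denervated limbs at day 1, against 5.26, 9.70, 11.90 and 12.52 in innervated limbs at day 1. UGT8, which makes the galactolipids of myelin, was 3.59, 4.18, 3.81 and 3.78 in denervated limbs, against 3.99, 4.18, 7.06 and 5.73 in innervated limbs. GPM6B, a neural membrane glycoprotein, was 7.48, 7.39, 7.62 and 7.60 in denervated limbs, against 6.46, 7.97, 9.61 and 9.62 in innervated limbs. Replicates 3 and 4 of the innervated group were high for all 5 genes and replicate 1 for none, and replicate 2 was high for MBP, PMP22 and GLDN and unremarkable for UGT8.

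**Figure D3:**
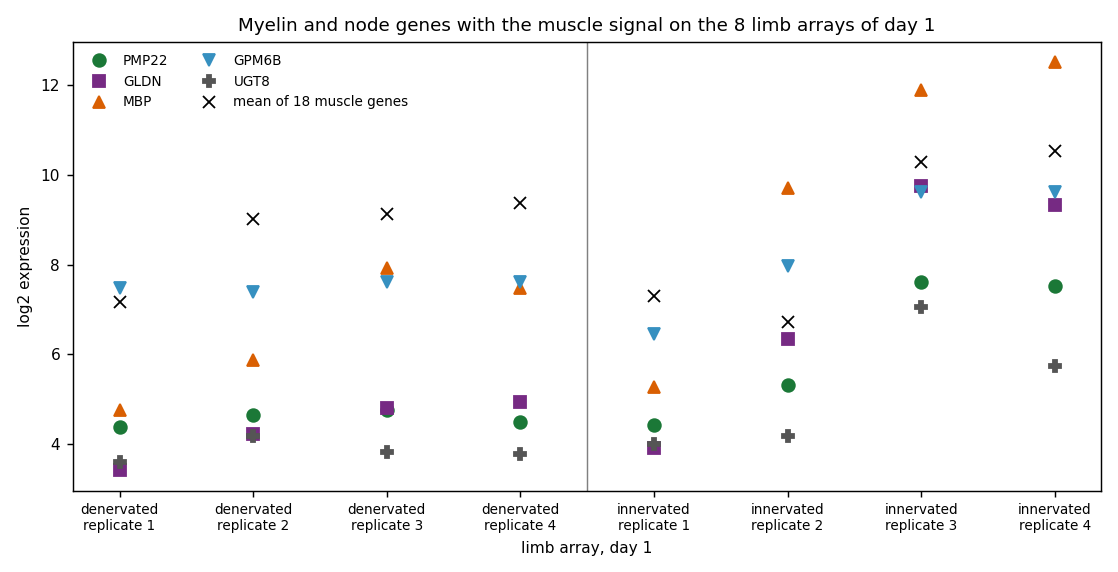
Log2 levels of PMP22, GLDN, MBP, GPM6B and UGT8 and the mean log2 level of 18 skeletal muscle genes on the 4 denervated and the 4 innervated limb arrays of day 1, 1 point for each array. Innervated replicates 3 and 4 are highest for the genes shown and for the muscle mean, whereas replicate 2 has raised MBP (9.70) and GLDN (6.33) and the lowest muscle mean (6.71).

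Signals of other cell types also varied over these arrays, and only in part along with this rise. Of 18 muscle genes, 7 were higher than day 0 in denervated limbs at day 1 and 0 lower (34.2% of all probe sets passed), and 11 were higher and 0 lower in innervated limbs at day 1 (36.0%). Without the 3 muscle-rich arrays the counts were 15 higher in denervated limbs, where PMP22 and GLDN did not pass, and 0 higher in innervated limbs. Of all 20035 probe sets, 6977 and 5756 were then called. No array of denervated day 1 or of day 0 was left out, so in denervated limbs only the shared spread changed. In innervated limbs the arrays were left out for their muscle signal, so the fall of that count followed from the choice. The mean of 17 fibroblast and dermal matrix genes was 9.04, 8.88, 9.03 and 9.08 in denervated limbs at day 1, against 8.12, 9.58, 10.09 and 9.45 in innervated limbs at day 1, so it was raised on innervated replicates 2, 3 and 4. The mean of 9 endothelial genes was 4.73, 4.84, 4.72 and 4.60 in denervated limbs at day 1, against 4.28, 4.73, 5.17 and 4.94 in innervated limbs at day 1, lowest on innervated replicate 1. Their part in the result was not tested beyond leaving out arrays. Without the 3 muscle-rich arrays, PMP22 in innervated limbs at day 1 was 0.44 above day 0 (adjusted p = 0.043) and GLDN 1.31 above it (0.0785), and over flank of day 1 they were higher by 0.53 (0.0869) and 1.00 (0.434). The fall of GLDN between day 1 and day 3 in innervated limbs was then -1.20 (0.13). Without innervated day 1 replicates 2, 3 and 4 and denervated day 3 replicate 3, a set chosen after the values were seen, both were near day 0, at -0.01 and 0.09 (adjusted p = 0.952 for GLDN), with 1 array left in the group.

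Muscle signal did not always go together with GLDN, MBP and PMP22. Denervated day 3 replicate 3 had a muscle mean of 10.34, yet GLDN was 3.46, MBP 5.39 and PMP22 4.42 there. Denervated day 3 replicate 1 had a muscle mean of 6.58, GLDN at 6.07 and MBP at 9.55, with PMP22 at 4.54. At day 7 GLDN was high without MBP: MBP was 5.41, 5.24, 5.47 and 5.35 in denervated limbs and 4.55, 4.92, 4.90 and 4.98 in innervated limbs, and the muscle mean lay between 4.70 and 4.90 on all 8 arrays. The day 7 calls of GLDN against day 0 were kept without the 3 muscle-rich arrays, at adjusted p of 1.2e-06 in denervated and 9e-05 in innervated limbs. None of those arrays is of day 0 or day 7, so the differences could not change and only the shared spread did.

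**Figure D4:**
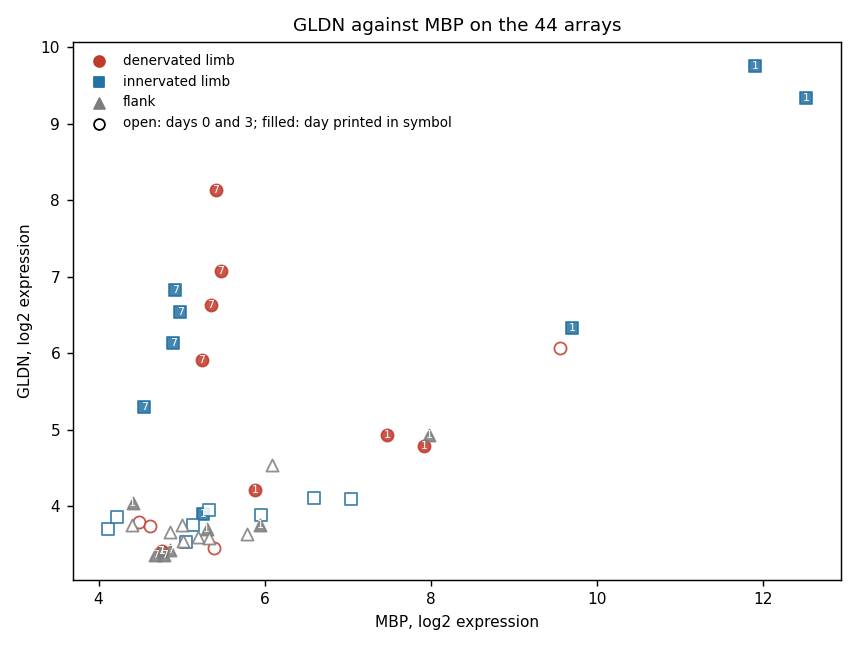
Log2 level of GLDN against log2 level of MBP on all 44 arrays, coloured by series; filled symbols carry day 1 or day 7 as a numeral and open symbols are days 0 and 3. The 3 innervated arrays of day 1 with high GLDN have high MBP, while the 8 limb arrays of day 7 have GLDN between 5.30 and 8.13 at MBP between 4.55 and 5.47.

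NGFR, the neurotrophin receptor, was modestly higher than day 0 in injured limbs and was not called in flank. It measured 5.65, 5.60, 5.93 and 5.28 in denervated limbs at day 1, 5.92, 5.41, 5.13 and 5.85 at day 3 and 5.63, 5.57, 5.48 and 5.74 at day 7. In innervated limbs it was 5.26, 5.14, 5.37 and 4.99 at day 0, 5.50, 5.79, 5.74 and 5.72 at day 1, 6.12, 5.90, 5.40 and 5.47 at day 3 and 5.79, 5.67, 6.03 and 5.84 at day 7. All innervated arrays after day 0 exceeded all day 0 arrays, most narrowly at day 3 (5.40 against 5.37), and in denervated limbs this held at day 7 alone. For how many of all probe sets the same held was not counted. Between denervated and innervated limbs NGFR did not pass on any day.

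The difference of NGFR from day 0 was 0.42 in denervated limbs at day 1 (adjusted p = 0.0256), 0.39 at day 3 (0.0539) and 0.41 at day 7 (0.0365), each with an SE of 0.15. In innervated limbs it was 0.50 at day 1 (0.00813), 0.53 at day 3 (0.00672) and 0.64 at day 7 (0.00101). The innervated calls at days 1 and 7 held under each omission of 1 array, and that of day 3 was lost without innervated day 3 replicate 1 (0.40, adjusted p = 0.0564). The denervated day 1 call was lost without innervated day 0 replicate 2 or 4 or denervated day 1 replicate 1 or 3, at differences of 0.32 to 0.41 and adjusted p up to 0.129, and that of day 7 without innervated day 0 replicate 2 or 4 or denervated day 7 replicate 1, 2 or 4, at 0.35 to 0.43 and adjusted p up to 0.122. At day 3 the denervated difference passed without innervated day 0 replicate 3, without denervated day 3 replicate 2 or, at 0.54 with an adjusted p of 0.00704, without denervated day 3 replicate 3.

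In flank, NGFR averaged 5.33, 5.24, 5.12 and 5.15 at days 0, 1, 3 and 7. The innervated limb exceeded flank by 0.60 at day 3 (adjusted p = 0.0107) and by 0.68 at day 7 (0.0024). As changes from day 0 the innervated limb exceeded the flank by 0.73 at day 3 (0.0485; 3.15% of all probe sets passed) and by 0.81 at day 7 (0.0229). For denervated limbs the same quantity was 0.51, 0.59 and 0.58 at days 1, 3 and 7, at adjusted p of 0.199, 0.118 and 0.132 (2.28%, 3.95% and 3.80% of all probe sets passed). The call of the level at day 3 was lost without innervated day 3 replicate 1 (0.47, adjusted p = 0.0778) or replicate 2 (0.54, 0.0506). The change at day 7 was lost without flank day 0 replicate 3 (0.0504) or innervated day 7 replicate 3 (0.0587), and the change at day 3 was lost without any 1 of 12 of its 16 arrays, at adjusted p up to 0.127 (without innervated day 3 replicate 1).

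UCHL1, the neuronal ubiquitin hydrolase, had probe sets at percentiles 80.3 and 88.7 of all probe sets by mean signal. The other members were dimmer, with PMP22 at percentile 33.1, GLDN at 37.4, NGFR at 47.6 and TUBB3 at 37.5. Genes of the neuron and axon list ranged from percentile 0.674 (SYT1) to 94.7 (BASP1), with MAP2 at 2.75 and STMN2 at 39.1. Which cells gave the UCHL1 signal was not tested. UCHL1 was lower in limb than in flank. On axo09830-r_at the limb lay below flank with no overlap at all days, but the difference did not pass at day 0 or in denervated limbs at day 1. The share of all probe sets that likewise did not overlap was not counted. At day 3, for example, it was 8.86, 8.21, 9.36 and 7.81 in denervated limbs and 8.53, 8.33, 8.16 and 8.02 in innervated limbs, against 10.18, 9.46, 9.97 and 9.90 in flank. On axo09831-r_at the same arrays gave 9.71, 9.15, 10.18 and 9.0 in denervated limbs and 9.33, 9.39, 9.18 and 9.25 in innervated limbs, against 10.62, 10.33, 10.63 and 10.63 in flank. The 2 probe sets followed each other over the 44 arrays, with a Pearson r of 0.959 as a description.

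The limb minus flank differences of UCHL1 at day 3 were -1.32 and -1.04 in denervated limbs (axo09830-r_at, adjusted p = 0.0040; axo09831-r_at, 0.0174) and -1.62 and -1.26 in innervated limbs (0.000392 and 0.0033). At day 7 they were -1.35 and -1.14 in denervated limbs (0.0026 and 0.0071) and -1.33 and -1.15 in innervated limbs (0.0025 and 0.0055). In uninjured skin the difference on axo09831-r_at was -1.05 (0.021). At day 1 they were -1.22 and -1.07 in innervated limbs (0.0113 and 0.0186) and -0.99 on axo09831-r_at in denervated limbs (0.0477). The innervated calls of days 3 and 7 held under each omission of 1 array. The other axo09831-r_at calls were lost with single omissions. At day 0 the call was lost without innervated replicate 1 or 2 or flank replicate 2 (adjusted p up to 0.0929), and at day 1 in innervated limbs without innervated replicate 1 or 2 or flank replicate 2 or 3 (up to 0.102). In denervated limbs it was lost at day 1 without any denervated array or flank replicate 2 or 3 (up to 0.215), at day 3 without denervated replicate 2 or 4 (up to 0.0757) and at day 7 without denervated replicate 1 (0.0634). On axo09830-r_at the innervated day 1 call was lost without flank day 1 replicate 2 (-0.96, adjusted p = 0.0648).

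With all members counted, the limb to flank comparison of levels in denervated limbs called 1 of 6 at day 1, 2 at day 3 and 4 at day 7, with backgrounds of 2.33%, 6.33% and 7.20%. In innervated limbs it called 1 at day 0 (4.35%), 4 at day 1 (4.93%), 3 at day 3 (6.24%) and 4 at day 7 (9.32%). The calls went both ways. In denervated limbs 1, 2 and 2 of them were lower in limb at days 1, 3 and 7. In innervated limbs 1, 2, 2 and 2 were lower at days 0, 1, 3 and 7. Each lower call was a UCHL1 probe set, so 2 of them on a day stand for 1 gene.

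On axo09831-r_at UCHL1 was lower than in uninjured skin at days 1 and 7 in both limb series and in flank. On axo09831-r_at the difference from day 0 was -0.70 at day 1 (adjusted p = 0.0492) and -0.90 at day 7 (0.0136) in denervated limbs, and -0.78, -0.77 and -0.90 at days 1, 3 and 7 in innervated limbs (0.0263, 0.0381 and 0.0131). In flank it was -0.76 at day 1 (0.0276) and -0.80 at day 7 (0.0316). On axo09830-r_at it passed at day 7 alone, at -0.85 in denervated limbs (0.0293) and -0.83 in innervated limbs (0.0336). Innervated day 0 replicate 3, at 9.42 and 10.63 the highest limb array of day 0 on both probe sets, bore on each of these limb calls: without it the 7 differences lay between -0.71 and -0.51 and none passed (adjusted p up to 0.203). Of these calls, those on axo09831-r_at at day 7 were also lost without denervated replicate 1 or innervated replicate 2 of that day, and each of the other 5 without 3 to 5 further arrays, at adjusted p up to 0.193. With the mean of both UCHL1 probe sets the calls of axo09831-r_at at denervated day 1, innervated day 3, flank day 1 and flank day 7 were lost (up to 0.144). The flank calls were lost without flank day 0 replicate 1 or 2 or flank day 1 replicate 1 or 4 at day 1 (up to 0.158), and without flank day 0 replicate 1 or 2 or flank day 7 replicate 2 or 4 at day 7 (up to 0.0973).

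TUBB3 against day 0 passed in denervated limbs at day 7, in innervated limbs at day 1 and in flank at days 1 and 3. In denervated limbs the mean was 5.22 ± 0.30 at day 7 (SD, n = 4), against 4.51 ± 0.46 at day 0, a difference of 0.71 ± 0.19 (SE; adjusted p = 0.00303) that held under each omission of 1 array. With only both groups in the fit it did not pass (adjusted p = 0.0542). In innervated limbs at day 1 the mean was 5.08 ± 0.25 and the difference 0.58 (0.0131). That call was lost without innervated day 0 replicate 2 (0.052) or 4 (0.098) or day 1 replicate 2 (0.0685), and with only both groups in the fit (0.0877). In flank the difference was 0.53 at day 1 (0.0198; 0.078 without flank day 1 replicate 4) and 0.51 at day 3 (0.0379), the day 3 call being lost without any flank day 0 array or flank day 3 replicate 3 or 4 (up to 0.172). Denervated day 7 also exceeded denervated day 3 by 0.59 (0.0463) and flank day 7 by 0.61 (0.0367). Both were lost under quantile normalization (0.0555 and 0.0551), the first also without the 3 muscle-rich arrays (0.1) or with only both groups in the fit (0.183), and each under 6 of 8 omissions of 1 array, at adjusted p up to 0.196 (without denervated day 3 replicate 2) and up to 0.143 (without denervated day 7 replicate 3). Tubulin genes are close copies of each other, and whether this probe set also took up signal of other tubulins was not tested.

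Among the group means of each member, neighbours in order nearly always overlapped in their arrays. For GLDN the order was innervated day 1, denervated day 7, innervated day 7 and then a step to denervated day 1 with no overlap, followed by groups between 4.27 and 3.64 and, again with no overlap, by flank day 7, lowest at 3.39. These steps separate neighbours alone. Innervated day 1 replicate 1 (3.90) lay within denervated day 1 (3.41 to 4.93). The lowest denervated day 1 array lay within flank day 7 (3.36 to 3.43). For axo09831-r_at of UCHL1, uninjured flank had the highest mean and did not overlap the next group by mean, flank at day 3, but it overlapped flank at day 1. For PMP22, NGFR, TUBB3 and the other UCHL1 probe set each neighbour in the order overlapped the next. The residual SD, pooled over all groups, was 1.02 for GLDN and exceeded that of 99.2% of all probe sets. It was 0.505 for PMP22 (95.4%), 0.437 and 0.411 for axo09830-r_at and axo09831-r_at of UCHL1 (93.5% and 92.5%), 0.271 for TUBB3 (81.1%) and 0.217 for NGFR (69.4%). For PMP22 the SD was 1.60 in innervated limbs at day 1 and between 0.09 and 0.20 in the other groups. For GLDN it was 2.75 there and between 0.04 and 1.21 in the others.

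The wider lists of nerve genes held no call between denervated and innervated limbs with all arrays in the fit. Of 13 myelin and Schwann cell genes, 11 genes of the node and axoglial contact, 15 of neurotrophin and glial growth factor signalling, 34 of neurons and axons and 6 tubulins, which include the members themselves, 0 were called on any of the 3 days. At day 7, EPB41L3 of the node list was higher in denervated limbs by 0.68 (adjusted p = 0.0675) and LINGO1 of the neurotrophin list lower by a difference of -1.05 (0.0738), and both passed without the 3 muscle-rich arrays (0.0437 and 0.0383), none of which is a day 7 array. Their median differences lay between -0.12 and 0.08 for the node list, between -0.09 and 0.08 for the myelin list, between -0.05 and 0.0025 for the neurotrophin list and between -0.02 and 0.04 for the neuron list. Of the lists of other cell types, the nerve comparison called TGM1, the transglutaminase of the cornified layer, lower by a difference of -1.85 at day 3 (adjusted p = 0.0055), and the macrophage genes CSF1R (0.68, 0.0274) and LGMN (0.41, 0.0425) higher at day 7, with denervated over innervated.

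Against day 0, 5 of 13 myelin and Schwann cell genes, PMP22 among the 5, were higher and 1 lower in innervated limbs at day 1. There 36.0% of all probe sets passed. In denervated limbs at day 1 the counts were 0 higher and 1 lower (34.2%), and in flank 2 and 3 (41.3%). Without the 3 muscle-rich arrays the innervated count was 1 higher, which was PMP22, and 0 lower. MBP was higher by 4.30 ± 1.00 (adjusted p = 0.00067) and UGT8 by 1.21 (0.0028) in innervated limbs at day 1, and without those arrays by 1.94 (0.19) and 0.06. PRX, periaxin of the myelinating Schwann cell, fell by 0.61, 0.47 and 0.76 at day 7 in denervated limbs, innervated limbs and flank.

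At day 7 other nerve-related genes were higher than day 0 in flank as well as in limb, while GLDN passed in the limb series alone. MATN2, a matrix protein on which axons grow, was higher than day 0 by 1.70 in denervated limbs, 1.56 in innervated limbs and 1.54 in flank. EPB41L3, a membrane skeleton protein of the paranode, was higher by 1.71, 1.03 and 1.09, and DCX, a microtubule protein of migrating neurons, by 1.85, 1.45 and 1.34. Of the node list, 2 of 11 genes were higher and 0 lower at day 7 in denervated limbs (27.0% of all probe sets passed), 2 and 0 in innervated limbs (26.6%) and 1 and 0 in flank (23.7%). GLDN is itself on this list and is 1 of the 2 genes called in each limb series, so these counts hold its own result again. Of the axonal partners of GLDN, NFASC did not pass against day 0 in any series and NRCAM in neither limb series.

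Of the neurotrophin list, 2 of 15 genes were higher and 2 lower than day 0 at day 7 in denervated limbs, 3 and 3 in innervated limbs and 2 and 2 in flank, against the same backgrounds. NGFR is itself on this list and is among the genes higher in both limb series. NTF3, a neurotrophin, was higher at day 7 by 0.80, 0.79 and 1.31 in denervated limbs, innervated limbs and flank. SORT1, which pairs with NGFR as a receptor of proneurotrophins, was lower, with differences of -1.51, -1.34 and -0.99. NRG1, the axonal growth factor for Schwann cells, was lower by differences of -0.56, -0.62 and -0.45. BDNF was higher in innervated limbs at day 1 by 1.53 (adjusted p = 0.0035), with levels of 3.71, 3.88, 5.53 and 5.72, and by 0.61 (0.37) without the 3 muscle-rich arrays.

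The list of 34 neuron and axon genes includes UCHL1 and TUBB3. Of the 34, 4 were higher and 3 lower in denervated limbs at day 1, 4 and 4 at day 3 and 6 and 5 at day 7. In innervated limbs the counts were 5 and 2, 3 and 3, and 4 and 3, and in flank 8 and 3, 7 and 2, and 6 and 3. The shares of all probe sets that passed were 34.2%, 26.4% and 27.0% in denervated limbs, 36.0%, 25.9% and 26.6% in innervated limbs and 41.3%, 27.4% and 23.7% in flank, so these counts lie near or below the background. SCG2, a granule protein of neurons and endocrine cells, was higher at day 1 by 4.50 in denervated limbs, 4.76 in innervated limbs and 5.46 in flank. Of 6 tubulins, TUBB6 was higher at day 1 by 3.66, 3.42 and 4.37 in the same order. These rises were present in flank as in limb, and a difference between the 3 was not tested for them.

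The probe sets whose 11 group means most resembled those of each member were also noted, as a description over groups that share arrays. For PMP22 they were MBP (r = 0.978), CLDN19, a claudin of Schwann cell junctions (0.975), and a further MBP probe set (0.963). For GLDN they were SLC23A2 (0.914), HSDL1 (0.912) and KLF2 (0.886), none of them from the lists above. For NGFR they were ALDH1A3 (0.929), TBRG4 (0.896) and FZD8 (0.895), for UCHL1 GCG (0.965) and LGALS1 on 2 probe sets (0.965 and 0.958), and for TUBB3 ABCC3 (0.917), GPR183 (0.915) and FBXO36 (0.905). Over the 44 single arrays each r was lower. It lay between 0.863 and 0.908 for PMP22, 0.319 and 0.574 for GLDN and 0.383 and 0.711 for NGFR. For UCHL1 it lay between 0.670 and 0.889 and for TUBB3 between 0.162 and 0.677.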

How the data were processed

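The labels assign 44 Affymetrix arrays to 11 groups of 4. Values are log2 signals deposited by the authors to 2 decimals; RMA and limma are named per the submitters' processing notes, without role or version. Control probe sets (45) were left out, leaving 20035, of which 10951 have 1 gene symbol (8639 symbols) in the platform annotation and 9084 have none. All 44 arrays were fitted with 1 mean per group in limma 3.58.1 (R 4.3.3; lmFit and eBayes, 33 residual degrees of freedom), two-sided, with Benjamini-Hochberg adjustment over all probe sets of a comparison. Of 34 comparisons, 28 were planned, and 6 of limb minus flank in change from day 0 were added after the data were seen. Members and gene lists were chosen with earlier results of these data known. All 6 member probe sets are named; of each list, up to 4 genes of smallest adjusted p in a nerve or day 0 comparison, any gene that did not pass, and the 3 most alike probe sets for each member; the 3 calls among the lists of other cell types were named after their values were seen. A list gene is represented by its brightest probe set. The procedure was tested on simulated data. No array pair was identical (0), and no scan date or batch is given. Sequences of the members were not analysed here.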

Additional observations from a re-analysis of the deposited data

Results flagged for a closer look

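In 3 of 66 sets of 4 arrays (6 probe sets in 11 groups), 1 array lay far from the rest by Dixon's ratio at its 95% critical value, which chance alone would give in about 1 in 20. GLDN in denervated limbs at day 3 had a highest value of 6.07 in replicate 1, with the others between 3.46 and 3.80. GLDN in uninjured flank had a highest value of 4.54 in replicate 3, with the others between 3.60 and 3.75. UCHL1 on axo09831-r_at in flank at day 3 had a lowest value of 10.33 in replicate 2, with the others at 10.62 and 10.63.

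In 5 cases the change from day 0 differed between limb and flank by a test of the difference itself, in comparisons added after the data were seen. GLDN at day 7 changed by 3.13 in denervated limbs and -0.49 in flank, a difference of 3.62 (adjusted p = 0.0269). GLDN at day 1 changed by 3.52 in innervated limbs and 0.23 in flank, a difference of 3.29 (0.0395), and PMP22 by 1.79 and 0.06, a difference of 1.73 (0.0304). NGFR changed by 0.53 in innervated limbs and -0.20 in flank at day 3, a difference of 0.73 (0.0485), and by 0.64 and -0.17 at day 7, a difference of 0.81 (0.0229). Of these, the NGFR call at day 3 was lost under 12 of 16 omissions of 1 array, under the replicate block (0.0556), median centring (0.0604) and trend with robust moderation (0.052). The GLDN call at day 1 was lost under 10 of 16 omissions of 1 array, and without the 3 muscle-rich arrays both the GLDN call (0.472) and the PMP22 call (0.375) at day 1 were lost.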

How the results depend on the processing

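Values here are log2 differences unless called counts, and day-to-day steps, the day dependence of the nerve difference and changes against flank are covered only where their unadjusted p was under 0.05, a scope set after the results were seen. The labels do not say whether same-numbered limbs were paired, and the deviations gave no sign of it, which does not exclude it. Same-numbered deviations correlated between -0.05 and 0.18 at day 1, -0.13 and 0.04 at day 3 and -0.15 and 0.17 at day 7. On these days 1, 0 and 1 of 4 denervated arrays correlated best with their own number. With the replicate block PMP22 at day 1 kept -1.65 (adjusted p = 0.0709), GLDN -3.00 (0.115) and TUBB3 at day 7 0.56 (0.142), the counts over all probe sets were 6, 59 and 379 at days 1, 3 and 7 (4, 53 and 340 without it), and 2 member calls were lost, TUBB3 in denervated day 7 over day 3 (0.59, 0.0561) and NGFR in the innervated change against flank at day 3 (0.73, 0.0556).

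The nerve difference of PMP22 at day 1 passed under quantile normalization (-1.69, adjusted p = 0.0399) and array weights (-1.68, 0.0341), and that of TUBB3 at day 7 under array weights (0.59, 0.0356), each making the member count 1. Array weights also gave calls for the day 7 against day 1 dependence of PMP22 (1.76), GLDN (3.69) and TUBB3 (1.01). A set of 4 arrays, the 3 muscle-rich ones and innervated day 1 replicate 2, was also left out. That set was chosen after the values were seen. It keeps denervated day 3 replicate 1, where MBP was raised too, and every denervated day 1 array. Over all probe sets the count at day 1 was 17 under quantile normalization, 15 without the 3 muscle-rich arrays and 0 with only the groups compared. At day 3 it was 26 and 11 under the last 2 of these, and at day 7 it was 776 with array weights. The cause of these changes was not tested, apart from the fewer arrays in some.

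Signs turned in these cases. Without the 3 arrays, and equally without the 4, the day 3 nerve difference was 0.0042 for NGFR and -0.00083 for UCHL1 axo09831-r_at. Array weights gave 0.086 for axo09830-r_at at day 7, the mean of both UCHL1 probe sets gave -0.005 for axo09831-r_at at day 7 and -0.22 for axo09830-r_at in flank day 3 over day 0, and quantile normalization gave -0.039 for PMP22 in flank day 1 over day 0. Without the 4 arrays, which leaves 1 innervated array at day 1 that is assumed to vary like the other groups, the nerve difference at day 1 was 0.14 for PMP22, 0.43 for GLDN and 0.11 for NGFR, PMP22 in innervated day 1 over day 0 was -0.0075, GLDN in innervated day 3 over day 1 was 0.02 and in innervated limb over flank at day 1 -0.21, the PMP22 day dependence was -0.085 at day 3 and -0.08 at day 7, and the change against flank at day 1 was -0.067 for PMP22 and -0.13 for GLDN.

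Counts of members called moved by more than 1.5 times in these cases, and smaller moves are not listed. Against day 0, in denervated limbs, day 1 gave 1 under quantile normalization, trend with robust moderation, array weights or only the groups compared, day 3 gave 1 without the dimmest 25% of probe sets, 2 without the 3 arrays and 1 without the 4, and day 7 gave 3 with only the groups compared. In innervated limbs, only the groups compared gave 3 at day 1 and 2 at day 7, and without the 4 arrays day 1 gave 1. In flank, quantile normalization gave 1 at day 1 and 0 at day 3, array weights 0 at day 1, and only the groups compared 1, 2 and 2 at days 1, 3 and 7. For limb over flank, only the groups compared gave 0 at innervated day 0, 0 at innervated day 1, 0 at denervated day 1 and 1 at denervated day 3, innervated day 1 gave 2 without the 3 arrays and 0 without the 4, and denervated day 1 gave 0 under quantile normalization, trend or array weights and 2 under median centring, without the dimmest 25%, without the 3 arrays or without the 4.

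With 1 array left out, nerve differences ranged at day 1 from -2.25 to -1.19 for PMP22, -4.14 to -2.19 for GLDN, -0.18 to 0.039 for NGFR and -0.062 to 0.18 for axo09831-r_at, at day 3 from -0.25 to 0.62 for GLDN, -0.26 to 0.0042 for NGFR and -0.00083 to 0.39 for axo09831-r_at, and at day 7 from -0.27 to 0.18 for axo09830-r_at and -0.24 to 0.24 for axo09831-r_at. Day dependence ranged from 1.27 to 2.33 (day 3) and 1.25 to 2.31 (day 7) for PMP22 and from 2.54 to 4.49 and 2.92 to 4.87 for GLDN. Uncalled differences that changed sign were denervated day 3 over day 0 (GLDN -0.14 to 0.73, TUBB3 -0.057 to 0.29), innervated day 7 over day 0 (TUBB3 -0.019 to 0.32), flank day 1 over day 0 (GLDN -0.046 to 0.45, NGFR -0.19 to 0.012, PMP22 -0.018 to 0.13), denervated limb over flank (TUBB3 -0.12 to 0.054 at day 1, -0.28 to 0.032 at day 3) and innervated limb over flank (GLDN -0.17 to 0.14 at day 0, TUBB3 -0.10 to 0.17 at day 3). Member counts ranged from 0 to 2 for the nerve comparison at day 1, and against day 0 from 0 to 2, 0 to 2 and 2 to 5 at days 1, 3 and 7 in denervated limbs, 3 to 5, 0 to 2 and 2 to 4 in innervated limbs and 0 to 2, 0 to 1 and 0 to 1 in flank. Against flank they ranged from 0 to 2, 1 to 3 and 2 to 4 in denervated limbs and 0 to 1 at day 0 and 2 to 5 at day 1 in innervated limbs. Besides single omissions, member calls were lost in 20 cases with only the groups compared, 8 without the 4 arrays, 7 without the 3 arrays, 6 under quantile normalization, 6 under array weights, 4 with the mean of both UCHL1 probe sets, 3 under trend with robust moderation, 2 under median centring and 2 under the replicate block. A linear scale was not run, since the values are logs.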
